A study of Mus musculus with 3 samples.

Results

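The genes of oxidative phosphorylation, 96 in all, were followed across the cell types of 3 single-cell libraries of mouse retina. They were chosen by symbol: the protein-coding genes of mitochondrial DNA (mt-Nd, mt-Co, mt-Atp and mt-Cytb), the nuclear genes whose symbols start with Ndufa, Ndufb, Ndufc, Ndufs, Ndufv, Uqcr, Cox4i, Cox5, Cox6, Cox7, Cox8 or Atp5, and Sdha, Sdhb, Sdhc and Sdhd. Genes of the Ndufaf series, which code for assembly factors, were left out. Of the 96 genes, 94 were listed in all 3 libraries: 95 of 18823 genes in the explants, 94 of 17851 at P0 and 95 of 17849 at P14. The mitochondrial DNA codes for 13 of them, and the other 82, 81 and 82 are nuclear. By name, 7 mitochondrial and 38 nuclear genes belong to complex I, 4 nuclear genes to complex II, 1 and 8 to complex III, 3 and 17 to complex IV and 2 and 16 to complex V. Ndufa4 is counted with complex I by its name, although it is known as a subunit of complex IV.

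Oxidative phosphorylation passes electrons from NADH and succinate through complexes I to IV to oxygen and uses the proton gradient across the inner mitochondrial membrane to make ATP at complex V. The core subunits are coded by mitochondrial DNA, which is transcribed as long transcripts from both strands and then cut, while all other subunits are transcribed in the nucleus and imported. In the retina, photoreceptor inner segments are packed with mitochondria, and photoreceptors and Müller glia are also known for strong aerobic glycolysis.

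The study asked whether signalling through the somatostatin receptor Sstr2 regulates retinal neurogenesis, and it pooled barcoded samples by MULTI-seq into 3 libraries. In the explant library, wild-type CD1 retinas were dissected at embryonic day 14 and grown for 6 days on Nuclepore membranes with 0, 5, 50 or 500 nM of an Sstr2 agonist, 2 explants at each dose. The P0 and P14 libraries each held littermates of C57BL/6 / CD1 background carrying a germline deletion of Sstr2: 1 Sstr2 +/+, 2 Sstr2 +/- and 2 Sstr2 -/- retinas, at postnatal days 0 and 14. How many retinas made up a sample is not given, and each barcoded sample is named explant or retina here. Cell types were those the authors assigned from clusters of these cells, so that p-values between cell types are too small, since part of the same expression defined the groups. Nothing in the labels says that explants or retinas came from separate cultures or litters, so p-values measure the spread between these samples only.

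UMIs (unique molecular identifiers, each standing for 1 counted transcript) numbered 1281682 to 4237324 per explant, 8822880 to 10793649 per retina at P0 and 1266730 to 5886669 per retina at P14, over 5607, 5706 and 3298 cells. The deposited explant cells held 1001 to 2499 genes each, and the libraries shared 4 to 9 cell barcodes pairwise. Sstr2 was counted in P0 neurogenic progenitors at 112 CPM (UMIs of a gene scaled to the same total in every sum of cells) in the wild type, at 189 and 248 CPM with Sstr2 +/- and at 294 and 375 CPM in those labelled knockout, so a 3' count of Sstr2 does not check the genotype labels. Each defining marker was highest in the cells of its name, except Pax6 at P14, highest in Müller glia, and Neurog2 in explants, highest in the cells named retinal ganglion cells (RGCs). The 68 amacrine cells at P14 also held the horizontal cell markers Calb1 and Lhx1 at 1961 and 376 CPM. The 200 explant RGCs held Pou4f2 at 56.6 CPM and Isl1 at 779 CPM beside Neurog2 at 247 CPM, Sox2 at 264 CPM and Tfap2b at 411 CPM. The paper states that its explants lack viable RGCs, so the name is kept here only as a label, also beside P0 RGCs. Of these 200 cells, 153 had over 10% of their UMIs from mitochondrial DNA, and so did 44 of the 68 amacrine cells at P14. Levels below are CPM of UMIs summed per explant or retina and cell type, and fold changes come from edgeR after TMM scaling. A share of UMIs within a cell type does not separate a change in these genes from a change in the cell's other RNA.

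The promoters of the nuclear genes were examined for known motifs. The 250 bases before the annotated start (RefSeq, GRCm38.p6) were on hand for 68 of the 83 nuclear genes, in 73 promoters. On either strand, the core letters of NRF1, a regulator of nuclear genes of respiration, were found in 14 of the 73 (19.2%), against 3.74% of all 32851 promoters. The ETS core CCGGAAG was found in 12 (16.4%, against 6.91%), the core of estrogen-related receptors AAGGTCA in 5 (6.85%, against 4.08%), and the hypoxia core ACGTG in 16 (21.9%, against 16.6%). The CRX core TAATCC, the letters bound by a photoreceptor homeodomain factor, was found in 6 (8.22%, against 6.25%), and the YY1 core AAGATGGC in 1 (1.37%, against 1.56%). These counts describe letters in a window and say nothing of binding. Among the 8 nuclear genes that were higher in photoreceptors than in primary progenitors both in explants and at P0, 0 promoters held the CRX core, 1 held the NRF1 core and 2 held AAGGTCA. Taken singly, 33.5% of all genes were higher in explant photoreceptors and 28.9% in those at P0. The promoters of 4 of these 8 genes are shown, with that of Cox6b2, the isoform gene whose promoter holds the CRX core. Capitals mark the NRF1 core, or AAGGTCA and TAATCC read from the opposite strand. The promoters of Ndufv3 and Cox8a held none of these 3 motifs.
Ndufv3 (chr17:31519865-31520114, plus strand): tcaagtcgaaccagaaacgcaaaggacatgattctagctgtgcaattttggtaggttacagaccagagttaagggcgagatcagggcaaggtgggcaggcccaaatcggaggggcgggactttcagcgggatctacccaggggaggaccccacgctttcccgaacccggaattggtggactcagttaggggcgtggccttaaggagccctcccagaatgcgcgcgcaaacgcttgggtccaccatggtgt
Cox8a (chr19:7217617-7217866, minus strand): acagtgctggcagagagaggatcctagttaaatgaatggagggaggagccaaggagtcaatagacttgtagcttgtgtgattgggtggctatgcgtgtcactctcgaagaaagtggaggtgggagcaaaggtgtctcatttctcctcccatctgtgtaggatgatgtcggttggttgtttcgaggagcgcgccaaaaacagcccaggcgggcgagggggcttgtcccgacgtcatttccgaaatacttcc
Ndufs5 (chr4:123718187-123718436, minus strand): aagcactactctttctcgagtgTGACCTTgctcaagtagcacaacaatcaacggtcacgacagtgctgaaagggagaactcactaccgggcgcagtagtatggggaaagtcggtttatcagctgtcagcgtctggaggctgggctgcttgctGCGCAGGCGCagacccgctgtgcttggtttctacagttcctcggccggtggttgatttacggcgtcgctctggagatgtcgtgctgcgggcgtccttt
Atp5g3 (chr2:73911327-73911576, minus strand): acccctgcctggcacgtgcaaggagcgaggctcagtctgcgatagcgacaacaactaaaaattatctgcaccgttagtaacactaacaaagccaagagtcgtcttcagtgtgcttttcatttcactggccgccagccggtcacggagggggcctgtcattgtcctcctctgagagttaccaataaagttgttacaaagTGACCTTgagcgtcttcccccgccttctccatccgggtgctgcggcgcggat
Cox6b2 (chr7:4753095-4753344, minus strand): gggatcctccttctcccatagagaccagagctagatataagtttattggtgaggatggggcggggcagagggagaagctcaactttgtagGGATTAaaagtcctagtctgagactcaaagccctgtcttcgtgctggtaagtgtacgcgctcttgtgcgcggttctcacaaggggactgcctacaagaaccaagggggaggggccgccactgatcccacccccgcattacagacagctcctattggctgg

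At P0 the 13 mitochondrial genes took a similar share of UMIs in every cell type, with small differences that held in each retina. Primary progenitors held 3.78% ± 0.0771 (SD, n = 5) mitochondrial and 3.1% ± 0.0887 nuclear UMIs of these genes. The mitochondrial share was 3.86% for the wild type, 3.86% and 3.76% for the heterozygous retinas, and 3.73% and 3.69% for those labelled knockout. Photoreceptors held 4.46% ± 0.115, with 4.49%, 4.60%, 4.50%, 4.45% and 4.28% in the same order, so that every photoreceptor value lay above every progenitor value. Neurogenic progenitors (3.89% ± 0.0996), amacrine cells (4.21% ± 0.122) and RGCs (4.45% ± 0.172) were also above primary progenitors within each of the 5 retinas. The nuclear share was highest in RGCs, at 3.46% ± 0.186 and above primary progenitors in 5 of 5 retinas. In neurogenic progenitors, photoreceptors and amacrine cells it was 2.93% ± 0.0514, 3.03% ± 0.104 and 2.95% ± 0.0402.

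In explants the mitochondrial share was near 6% in all cell types but RGCs. Primary progenitors held 5.93% ± 0.444 (SD, n = 8) mitochondrial and 2.88% ± 0.122 nuclear UMIs, and photoreceptors 6.22% ± 0.354 and 3.08% ± 0.0762. The nuclear share was higher in photoreceptors than in primary progenitors in 8 of 8 explants, and the mitochondrial share in 7 of 8. Neurogenic progenitors held 5.86% ± 0.315 mitochondrial and 2.96% ± 0.0369 nuclear UMIs, and amacrine cells 5.73% ± 0.401 and 2.91% ± 0.0895. RGCs, of which 7 explants had at least 10 cells, held 16.9% ± 3.15 mitochondrial UMIs (11.5% to 20.5%) and only 2.05% ± 0.395 nuclear UMIs. Their mitochondrial share was above that of primary progenitors, and their nuclear share below it, in 7 of 7 explants.

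At P14 the cell types differed more. Rods held 5.58% ± 0.727 (SD, n = 5) mitochondrial and 3.39% ± 0.164 nuclear UMIs. In the wild type, the heterozygous retinas and those labelled knockout the mitochondrial share of rods was 5.39%, 5.77% and 6.20%, and 6.13% and 4.42%. Cones held 8.92% ± 0.611 mitochondrial UMIs, with 8.65%, 8.16% and 9.58%, and 9.52% and 8.71%, and 4.02% ± 0.248 nuclear UMIs. The cone values of the mitochondrial share did not overlap with those of rods, and both shares were higher in cones in 5 of 5 retinas. Müller glia held 6.25% ± 0.353 and 2.65% ± 0.169, and bipolar cells 10.7% ± 1.97 and 2.74% ± 0.418. In both, the mitochondrial share was above and the nuclear share below that of rods in 5 of 5 retinas. Amacrine cells, with at least 10 cells in 3 retinas only, ranged from 8.73% to 19.8% for mitochondrial and from 1.01% to 4.32% for nuclear UMIs.

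**Figure D1:**
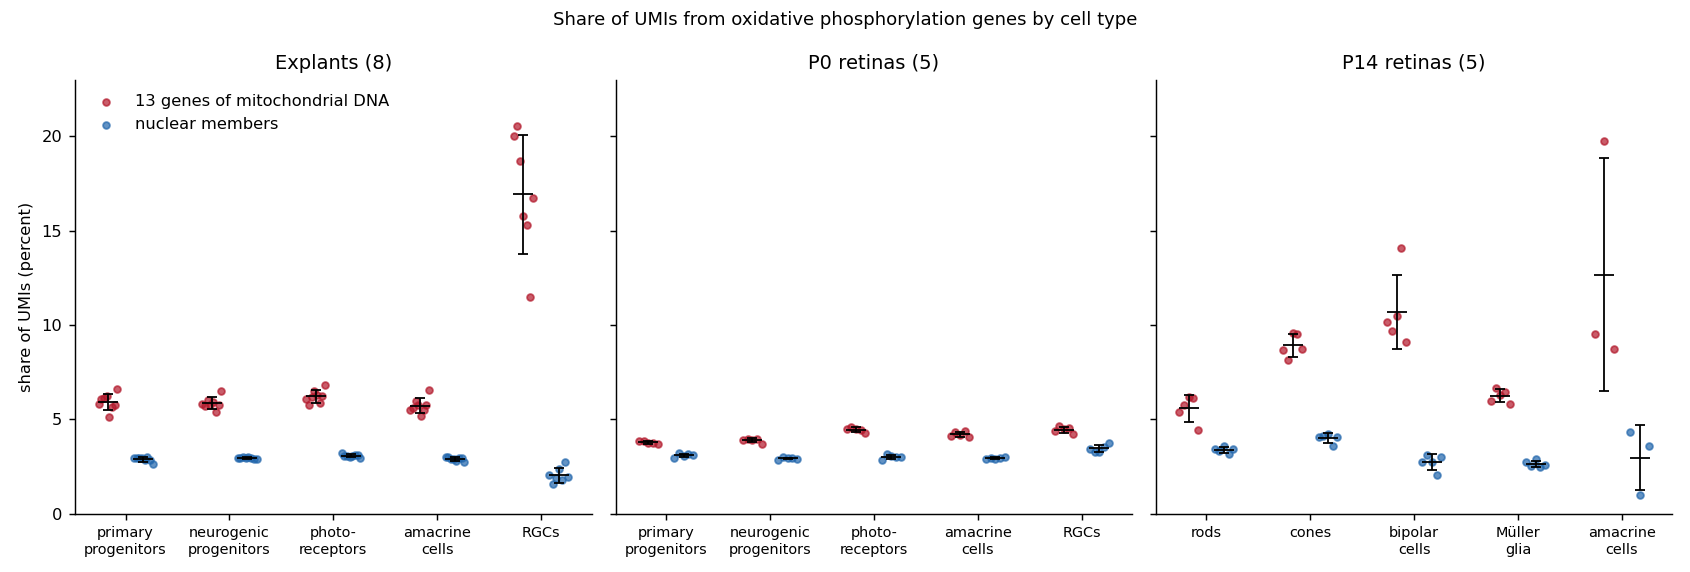
Share of all UMIs, in percent, from the 13 genes of mitochondrial DNA (red) and from the nuclear genes (blue) per explant or retina (points) in each cell type, with mean and SD as bars. Explant RGCs stand apart at 11.5% to 20.5% mitochondrial UMIs, and at P14 cones and bipolar cells lie above rods.

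The high mitochondrial shares of bipolar cells, amacrine cells and explant RGCs came with cells of a distinct composition. At P14, 58.1% ± 13.1 of the bipolar cells of a retina had over 10% mitochondrial UMIs. In these cells mitochondrial UMIs were 19.0% ± 2.67, nuclear UMIs of the members 1.27% ± 0.224 and ribosomal protein UMIs 2.36% of the total, and Malat1, a nuclear noncoding RNA, took 8.51%. In the bipolar cells at or under 10% these shares were 6.43% ± 0.357, 3.52% ± 0.195, 8.37% and 7.18%. The nuclear share of the bipolar cells at or under 10% (3.52%) thus lay near that of rods at or under 10% (3.41%). In rods over 10%, which were 9.26% of the rods, the nuclear members held 3.28% ± 0.755 and ribosomal protein genes 7.92%, against 3.41% and 7.82% in the other rods. Malat1 took 5.24% in rods over 10% and 8.94% in the others. As medians over cells, nuclear members held 2.72% in rods over 10% and 3.40% in the others, and ribosomal protein genes 6.38% and 7.72%. The split itself lowers shares of all UMIs in cells over 10%. Taken over UMIs of nuclear genes only, nuclear members held 3.77% ± 0.852 in rods over 10% and 3.59% ± 0.168 in the others. In bipolar cells these values were 1.56% ± 0.238 and 3.76% ± 0.202. Explant RGCs over 10% (4 explants with 10 or more such cells) held 22.3% mitochondrial and 1.43% ± 0.160 nuclear UMIs with 4.47% ribosomal and 6.96% Malat1 UMIs. In the 1 explant with 10 or more RGCs at or under 10%, the shares were 6.85%, 2.56%, 10.9% and 2.73%. The part of cell damage in these shares was not tested.

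**Figure D2:**
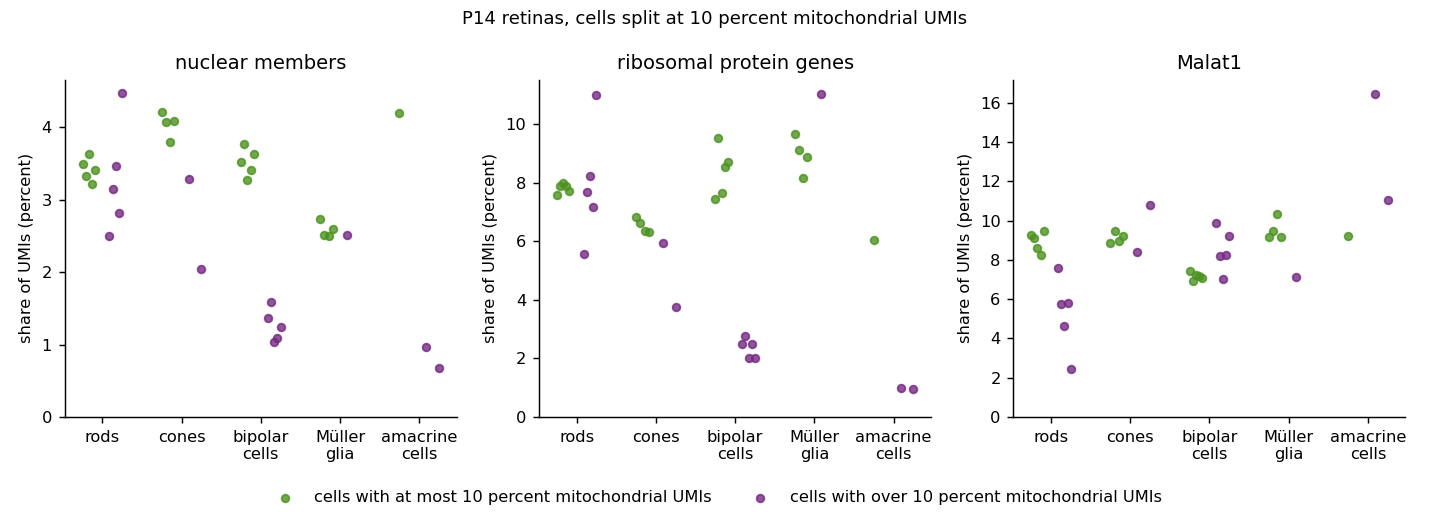
Share of UMIs, in percent, from nuclear members, ribosomal protein genes and Malat1 in P14 cells with at most 10% (green) and over 10% (purple) mitochondrial UMIs, 1 point for each retina with at least 10 such cells. In bipolar cells nuclear members fall from 3.52% to 1.27% and ribosomal protein genes from 8.37% to 2.36% across the split, while nuclear members in rods are at 3.41% and 3.28%.

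In photoreceptors of the early libraries, genes of mitochondrial DNA passed in both directions. Cytochrome c oxidase subunit 1, mt-Co1 (chrM:5328-6872), the catalytic core of complex IV, was higher in photoreceptors than in primary progenitors in both early libraries. At P0 it was at 5563 CPM in the wild type, 6251 and 6183 CPM in the heterozygous retinas and 5879 and 6004 CPM in those labelled knockout, against 3699, 3983, 3964, 3887 and 3968 CPM in primary progenitors of the same retinas. The groups did not overlap, and the log2 fold change was 0.41 (SE 0.03, adjusted p = 1.58e-14, higher in 5 of 5). In explants it was 0.33 (adjusted p = 1.84e-05, 7430 against 5519 CPM, higher in 8 of 8). Across the 12 comparisons between cell types, mt-Co1 passed as higher in 8 and as lower in 0, and mt-Co3 as higher in 6 and as lower in 0. In single comparisons 9.62% to 35.9% of all genes passed as higher, and how many did so as often is not given here. By contrast the complex I genes mt-Nd1 and mt-Nd2 were lower in photoreceptors, at -0.41 and -0.39 on the log2 scale in explants and -0.23 and -0.29 at P0. The P0 fall of mt-Nd1 was not kept when total UMIs replaced TMM (-0.02), whereas mt-Nd2 still passed at -0.09.

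TMM scaling matters for the P0 counts. With total UMIs in place of TMM, the median over all genes rose by 0.20 on the log2 scale in photoreceptors and amacrine cells, by 0.14 in RGCs and by 0.11 in neurogenic progenitors, by 0.13 in explant RGCs and P14 bipolar cells, and fell by 0.20 in Müller glia. At P0, of the 13 mitochondrial genes, 2 were higher and 6 lower in photoreceptors after TMM and 7 higher and 1 lower by total UMIs. In RGCs these counts were 3 and 4 after TMM, and 9 and 0 by total UMIs. The direction of small differences at P0 is therefore set by the scaling, and the differences named below kept direction and call by total UMIs unless stated.

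After TMM, nuclear members passed in both directions in photoreceptors of the early libraries. In explants, 23 of 79 nuclear members tested were higher and 29 lower than in primary progenitors, where 33.5% of all 9261 genes tested were higher and 33.7% lower. By total UMIs 30 were higher and 23 lower, beside 37.7% and 29.7% of all genes. Within complex I, 16 of 38 were higher and 8 lower, whereas complex V had 2 of 16 higher and 7 lower, complex IV 4 of 13 and 7, complex III 1 of 8 and 4, and complex II 0 of 4 and 3. At P0, 9 of 80 were higher and 48 lower, beside 28.9% and 38.4% of all 11285 genes, and by total UMIs 27 were higher and 30 lower, beside 37.8% and 28.6%. Members of each complex then passed as lower more often than as higher after TMM, with 7 higher and 17 lower of 38 in complex I and 1 and 10 of 14 in complex IV. The median log2 fold change of the nuclear members was -0.06 in explants (0.01 over all genes) and -0.22 at P0 (-0.10 over all genes).

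Ndufv3 (chr17:31520115-31531331, plus strand), a flavoprotein-arm subunit of complex I, was the nuclear member with the largest rise in photoreceptors in both libraries. In explants its level was 515, 572 and 645 CPM (lowest, median and highest of 8) in photoreceptors and at most 295 CPM in primary progenitors. At P0 it was 431, 523, 516, 509 and 519 CPM in the wild type, the heterozygous retinas and those labelled knockout, against 279 CPM ± 10.5 in primary progenitors. No explant or retina overlapped between the cell types, with log2 fold changes of 1.01 (SE 0.07, adjusted p = 1.9e-26) and 0.63 (SE 0.05, adjusted p = 4.85e-14). Its promoter is the first of those printed above.

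Cox8a (chr19:7215153-7217616, minus strand), the small complex IV subunit of most tissues, followed the same pattern. In explants it reached 1675, 1880 and 2020 CPM (lowest, median and highest) in photoreceptors, while primary progenitors stayed between 882 and 939 CPM. The log2 fold change was 0.95 (SE 0.06, adjusted p = 2.92e-29), and at P0 it was 0.20 (adjusted p = 3.76e-05, 1424 CPM ± 53.9 against 1076 CPM ± 35.9). Ndufb8, a membrane-arm subunit of complex I, was at 721 CPM ± 76.1 against 382 CPM in explants (0.82, adjusted p = 3.72e-22) and at 485 against 384 CPM at P0 (0.13, adjusted p = 0.0287), although its 3' end is nearly the same as that of the gene Gm20538. Ndufa4 was at 1321 CPM ± 108 against 810 CPM ± 58.4 in explants (0.60) and at 943 against 657 CPM at P0 (0.32). In all, 8 nuclear members were higher in photoreceptors of both libraries: Atp5g3, Cox8a, Ndufa10, Ndufa4, Ndufa6, Ndufb8, Ndufs5 and Ndufv3. By total UMIs there were 20 such genes, these 8 among them. Taken singly, 33.5% of all genes were higher in explant photoreceptors and 28.9% in those at P0 after TMM. By total UMIs these shares were 37.7% and 37.8%, and the share of all genes higher in both libraries is not given here.

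Beside the isoform genes described further on, the falls in photoreceptors included Atp5e and Atp5g2, which code for the epsilon subunit and a c-ring subunit of ATP synthase, and subunits of succinate dehydrogenase. In explants Atp5e fell by 0.85 and Atp5g2 by 0.78 on the log2 scale, and at P0 by 0.63 and 0.69. Sdhb, the iron-sulfur subunit of complex II, fell by 0.64 in explants and Sdhd, a membrane anchor, by 0.57, and both also fell at P0 (-0.49 and -0.54). Isoforms of the ATP synthase c subunit, which code for the same mature protein from 3 genes, thus moved apart in photoreceptors: Atp5g3 rose in explants (0.48) and at P0 (0.14) while Atp5g2 fell.

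**Figure D3:**
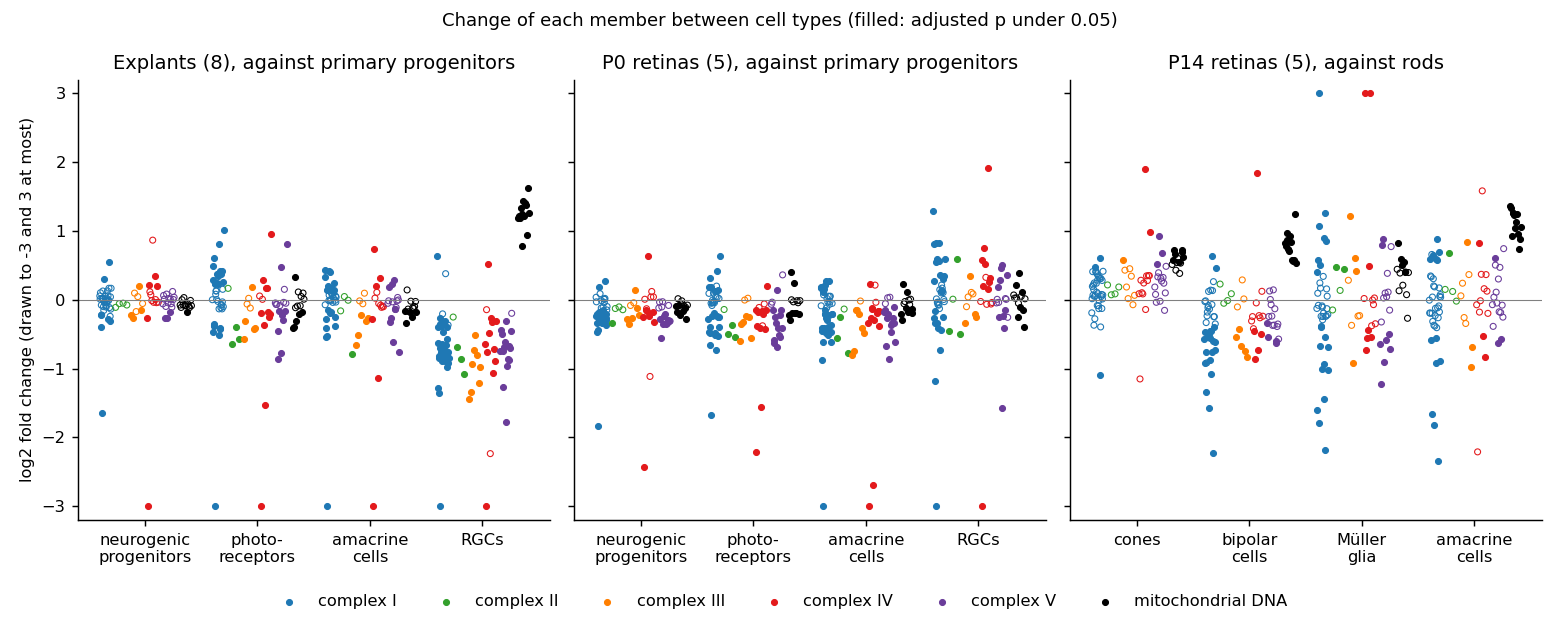
Log2 fold change of each member against primary progenitors (explants, P0) or rods (P14), coloured by complex, filled where the adjusted p was under 0.05, with values beyond 3 drawn at 3. In explant RGCs the 13 mitochondrial genes lie between 0.78 and 1.63 while most nuclear members are negative.

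In P0 RGCs some nuclear subunits passed as higher and others as lower. Of 80 nuclear members tested, 28 were higher and 21 lower than in primary progenitors, beside 32.1% and 39.2% of all genes, and by total UMIs 44 were higher and 13 lower, beside 35.5% and 34.5%. After TMM their median log2 fold change was 0.02, against -0.16 over all genes. Complex IV had 8 of 14 higher and 1 lower, complex I 13 of 38 and 10, and complex V 5 of 16 and 5. The count of members lower fell from 25 to 13 when heterozygous retina 1 was left out. The 85 RGCs were large, with a median of 24853 UMIs per cell.

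Ndufa1 (chrX:37187588-37191163), a small membrane subunit of complex I, showed the largest rise in RGCs after the thinly counted Cox7a1. It was at 903 CPM in the wild type, at 960 and 665 CPM in the heterozygous retinas and at 699 and 833 CPM in those labelled knockout, while primary progenitors held 282 to 324 CPM. No retina overlapped, and the log2 fold change was 1.30 (SE 0.06, adjusted p = 1.56e-21). Ndufa4 was at 1291 CPM ± 45.9 in RGCs (0.83, adjusted p = 3.57e-19), and Ndufa11, Ndufb2 and Cox6a1 rose by 0.81, 0.83 and 0.76. Cox7a1, known as the heart and muscle isoform of a complex IV subunit, was at 9.18 CPM ± 5.29 in RGCs (22 UMIs) and 2.24 CPM in primary progenitors (1.92, SE 0.46, adjusted p = 0.000289), with the wild-type retina at 0. The falls were led, after the isoform genes described further on, by Atp5g2, at 399 CPM ± 29.6 against 1084 CPM ± 32.1 (-1.58, SE 0.05, adjusted p = 1.29e-26), and Ndufa2 (-1.18). In contrast to Atp5g2, its sister genes Atp5g1 and Atp5g3 rose by 0.46 and 0.51.

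In explant RGCs all 13 mitochondrial genes were higher, by 0.78 (mt-Atp8) to 1.63 (mt-Nd6), and 69 of 79 nuclear members were lower, with 2 higher, beside 25.4% higher and 30.8% lower of all genes. mt-Co3 was at 24070 to 44355 CPM in RGCs and at 9865 to 12460 CPM in primary progenitors, so that the groups did not overlap (1.44, SE 0.08, adjusted p = 1.38e-29). Ndufa1 and Cox6a1 were the only nuclear members to rise, by 0.63 and 0.52 (both in 7 of 7 explants), as both did at P0. The falls reached -1.78 for Atp5g2, -1.45 for Uqcr10 and -1.35 for Ndufa2. When cells over 10% mitochondrial UMIs were left out, which left RGCs of 1 explant only, 1 member was higher and 10 lower in place of 15 and 69, with mt-Co3 at -0.00 and mt-Nd2 at -0.48. Ndufa1 was at 0.07 in these cells and Cox6a1 at 0.82.

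**Figure D4:**
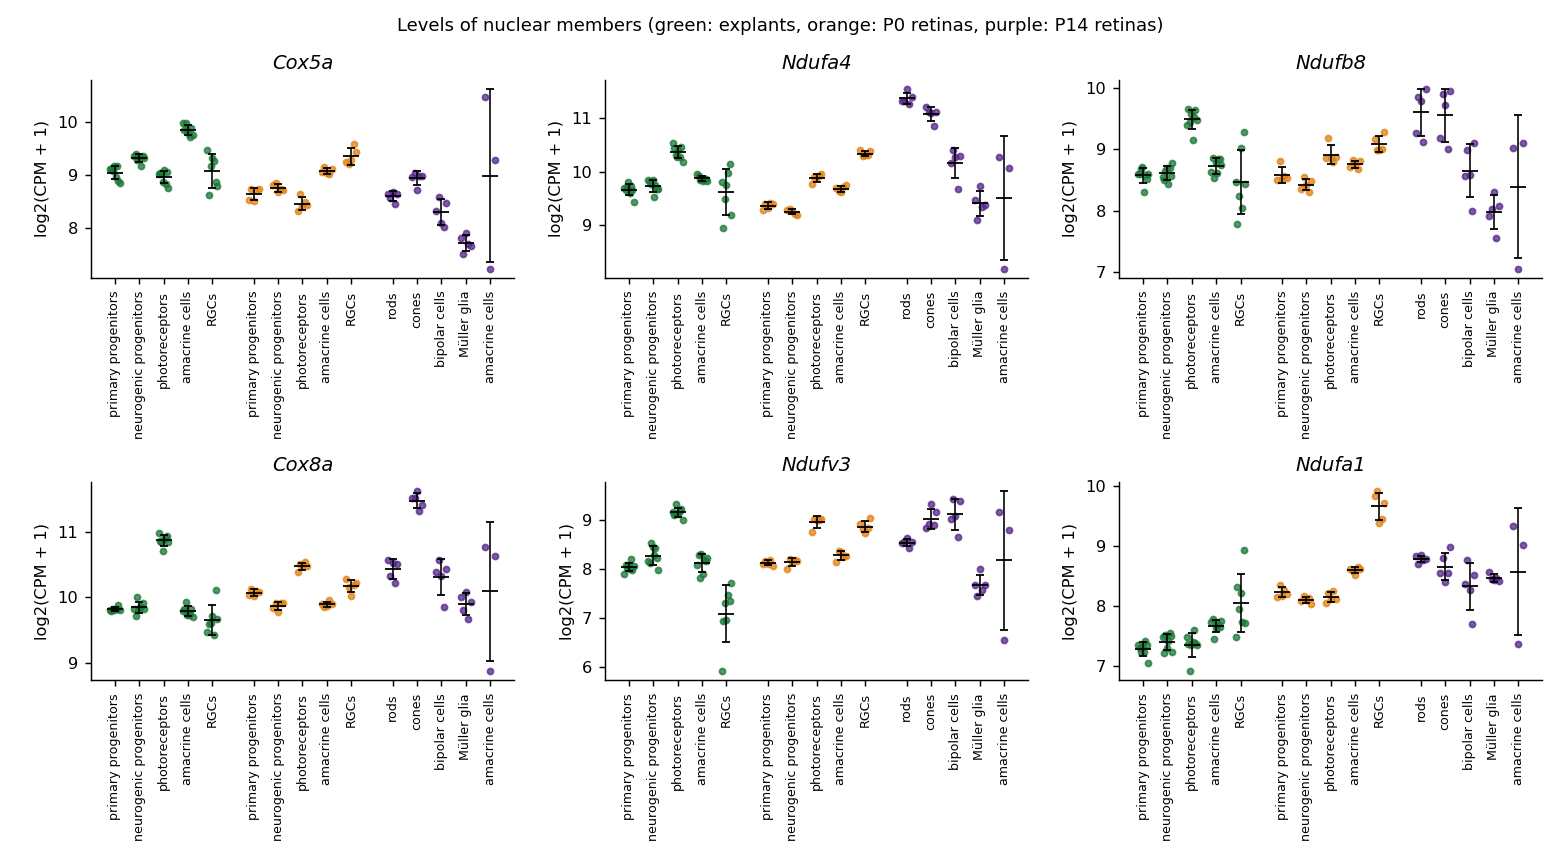
Levels, as log2(CPM + 1), of 6 nuclear members per explant or retina in each cell type of the explants (green), P0 retinas (orange) and P14 retinas (purple), with mean and SD as bars. Ndufa4 stands high in P14 rods and cones, Cox5a in explant amacrine cells, Cox8a in explant photoreceptors and P14 cones, Ndufv3 in early photoreceptors and Ndufa1 in P0 RGCs.

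Amacrine cells shared a rise of Cox5a, a nuclear-coded subunit of complex IV, in explants and at P0. In explants Cox5a was at 844, 922 and 1010 CPM (lowest, median and highest) in amacrine cells and at most 574 CPM in primary progenitors, without overlap (0.74, adjusted p = 5.41e-21). At P0 it was at 538 against 399 CPM (0.23, adjusted p = 0.000131). Ndufa11, Ndufa8, Ndufb2 and Ndufa1 of complex I rose with it, by 0.34 to 0.43 in explants and 0.17 to 0.27 at P0. Sdhd, Uqcr10 and Ndufa2 fell in both libraries, by 0.54 to 0.79 in explants and 0.77 to 0.87 at P0. In all, 17 of 79 nuclear members were higher and 25 lower in explants (32.9% and 33.2% of all genes), and 8 of 80 were higher and 53 lower at P0 (35.9% and 39.1%). By total UMIs the P0 split was 22 higher and 29 lower, beside 44% and 31% of all genes, and with DESeq2's size factors the explant split over all members was 7 higher and 54 lower in place of 17 and 30.

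In neurogenic progenitors, the cells leaving the cycle, more nuclear members passed as lower than as higher after TMM. In explants 6 of 79 nuclear members were higher and 13 lower, beside 13.7% and 18% of all genes (13 and 9 by total UMIs, beside 16.4% and 15.5%), and at P0 4 of 80 were higher and 46 lower, beside 16.3% and 26.3% (8 and 32 by total UMIs, beside 21.7% and 19.8%). The lower count in explants over all members fell from 14 to 9 when either 5 nM explant 2 or 50 nM explant 1 was left out, and the higher count at P0 from 4 to 2 without heterozygous retina 2 or the wild type. Ndufs5, a complex I subunit, rose in both, by 0.55 in explants (adjusted p = 5.64e-11, higher in 8 of 8) and by 0.27 at P0 (5 of 5), and Uqcrfs1, the Rieske protein of complex III, by 0.20 and 0.15. Ndufa13, Ndufs7 and Atp5d fell in both, by 0.27 to 0.39 in explants and 0.37 to 0.55 at P0.

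The isoform gene Cox4i2 (chr2:152754173-152765037, plus strand), which codes for a complex IV subunit and is known to be induced by low oxygen, marked progenitors early and Müller glia late. At P0 primary progenitors held it at 150 CPM in the wild type, 187 and 155 CPM in the heterozygous retinas and 190 and 184 CPM in those labelled knockout. Neurogenic progenitors held 34.5 CPM ± 5.54, photoreceptors 42.4 CPM ± 14.4, amacrine cells 9.85 CPM and RGCs 3.38 to 9.96 CPM (13 UMIs), all below every value of primary progenitors. The log2 fold changes were -2.43 (SE 0.11, adjusted p = 1.87e-21), -2.21, -4.34 and -5.10 (SE 0.23, adjusted p = 1.43e-22). In explants primary progenitors held 76.9, 111 and 117 CPM (lowest, median and highest), and no sum of another cell type exceeded 19.4 CPM (-3.69 to -5.17). At P14 Müller glia held 772 CPM in the wild type, 774 and 810 CPM in the heterozygous retinas and 730 and 796 CPM in those labelled knockout, whereas rods held 0.692 to 16.9 CPM. This was the largest difference of any member at P14 (6.97, SE 0.25, adjusted p = 3.98e-28, 126-fold), and cones, bipolar cells and amacrine cells had 4, 21 and 1 UMIs in all. Glul, the Müller glial glutamine synthetase, was at 7591 CPM in the same cells and 114 CPM in rods.

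Cox4i1, the isoform of most tissues, did not mirror Cox4i2. It was lower than in primary progenitors in neurogenic progenitors (-0.26 in explants, -0.24 at P0) and amacrine cells (-0.28 and -0.34), and did not pass at P14, where the log2 fold change in Müller glia was 0.02 (adjusted p = 0.932). In P0 photoreceptors it was at -0.14 after TMM and 0.06 by total UMIs.

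Ndufa4l2 (chr10:127514967-127517154, plus strand), a paralogue of Ndufa4, was distributed like Cox4i2. At P0 it was at 159 CPM in the wild type, at 338 and 280 CPM in the heterozygous retinas and at 267 and 286 CPM in those labelled knockout in primary progenitors. It was lower in neurogenic progenitors (81.3 CPM, -1.83), photoreceptors (95.4 CPM, -1.68) and amacrine cells (31.5 CPM, -3.32), and RGCs had 5 UMIs in all (-7.08, adjusted p = 6.85e-23). In explants primary progenitors held 184 CPM ± 39.6, and neurogenic progenitors, photoreceptors and amacrine cells held 61.2, 24.6 and 15.1 CPM, with 6 UMIs in RGCs. At P14 Müller glia held 11.5 to 73.4 CPM (115 UMIs) and rods at most 1.20 CPM (6 UMIs), with a log2 fold change of 5.45 (SE 0.44, adjusted p = 2.35e-15). Its values in Müller glia thus spread widely between retinas, while those of Cox4i2 lay within 730 to 810 CPM.

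Cox6b2 (chr7:4751792-4753094, minus strand), known as a testis isoform of complex IV, was low but restricted in the same libraries. At P0 it was higher in neurogenic progenitors (41.2 CPM ± 8.05) than in primary progenitors (24.5 CPM ± 3.13; 0.64, adjusted p = 0.000315) and lower in photoreceptors (-1.55) and amacrine cells (-2.69). At P14 it was at 41.8 CPM ± 7.73 in Müller glia against 2.58 CPM in rods (4.14, SE 0.31, adjusted p = 3.24e-16), and it also passed in bipolar cells (1.84) and in cones (1.91, adjusted p = 0.0125, 13 UMIs). Other isoform genes were hardly counted: Cox6a2 had 1 UMI in the explants, Cox7b2 had 15 UMIs at P0 and 5 at P14, and Cox8b 14 UMIs at P14.

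**Figure D5:**
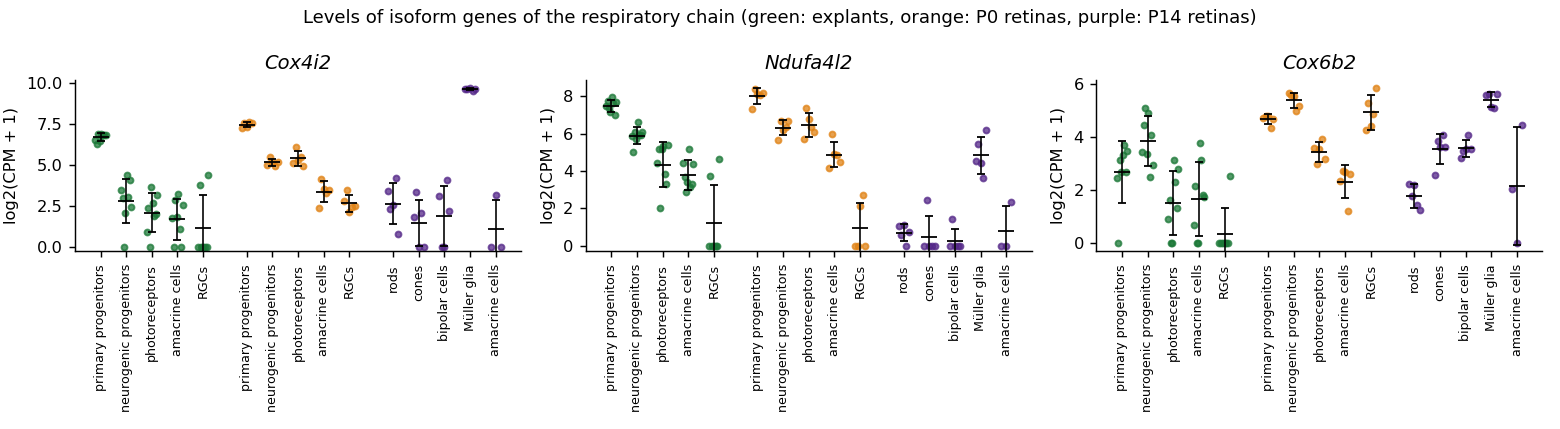
Levels, as log2(CPM + 1), of Cox4i2, Ndufa4l2 and Cox6b2 per explant or retina in each cell type of the explants (green), P0 retinas (orange) and P14 retinas (purple), with mean and SD as bars. Cox4i2 and Ndufa4l2 are highest in primary progenitors and, at P14, in Müller glia, where Cox4i2 lies within 730 to 810 CPM.

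At P14 a few nuclear members were higher in rods than in bipolar cells, Müller glia and amacrine cells. Cones were not part of this choice, and 1 of 79 nuclear members passed as lower in cones than in rods. Ndufa4 was at 2661 CPM ± 206 in rods and 2173 CPM in cones (-0.37, adjusted p = 0.198), and lower in bipolar cells (1161 CPM, -1.34), Müller glia (682 CPM, -1.79) and amacrine cells (869 CPM, -1.66). Altogether 7 nuclear members were lower than in rods in all 3 of these cell types, among them Atp5k, Cox6c, Ndufa4, Ndufb11, Ndufb8 and Ndufv1. By total UMIs there were 6, with Uqcrh and without Atp5k and Cox6c. Taken singly, 22.6%, 28.2% and 19.9% of all genes were lower in bipolar cells, Müller glia and amacrine cells after TMM. The share of all genes lower in all 3 is not given here. Of the 578 bipolar cells 356, and of the 68 amacrine cells 44, had over 10% mitochondrial UMIs. In these cells nuclear members held only 1.27% and 0.816% of UMIs. Ndufb8 was at -1.07, -1.45 and -0.91 on the log2 scale, and Ndufb11 at -1.57, -1.0 and -1.82, in bipolar cells, Müller glia and amacrine cells.

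Most of the members that passed between cones and rods were higher in cones. For nuclear members the share that was higher lay near that of all genes. Of the mitochondrial genes 7 of 13 were higher and 0 lower, and of the nuclear members 8 of 79 were higher and 1 lower, beside 9.62% higher and 8.43% lower of all 9902 genes. The median log2 fold change was 0.57 for mitochondrial genes and 0.19 for nuclear members, against -0.09 over all genes. Cox8a was at 2946 CPM in the wild type, 2932 and 3160 CPM in the heterozygous retinas and 2551 and 2737 CPM in those labelled knockout. Rods of the same retinas held it at 1193 to 1517 CPM, without overlap (0.98, SE 0.19, adjusted p = 5.43e-05). Atp5g1, the c-ring gene, was at 1029 CPM ± 95.7 in cones and 511 CPM ± 28.6 in rods (0.93, adjusted p = 5.2e-05), and mt-Co1 at 15229 CPM ± 1192 against 8777 CPM ± 1023 (0.73, adjusted p = 0.0147). Atp5j, Ndufs1 and Uqcr10 rose by 0.68, 0.61 and 0.58. The cones were 115 cells, and the count of members higher was 15 with all retinas, 4 without heterozygous retina 1, 9 without heterozygous retina 2 and 5 without knockout retina 2. The count of members lower was 3 without knockout retina 1.

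Müller glia raised and lowered different nuclear subunits, 18 of 79 higher and 23 lower, beside 36.8% and 28.2% of all genes (11 and 36 by total UMIs, beside 32.1% and 34.8%), and 44 members were lower when knockout retina 1 was left out. Ndufc2, a small membrane-arm subunit, was at 436 CPM in the wild type, 476 and 547 CPM in the heterozygous retinas and 430 and 542 CPM in those labelled knockout. Rods held 229 CPM ± 17.2, and the groups did not overlap (1.27, SE 0.16, adjusted p = 3.28e-09). Uqcr11, Ndufa3, Atp5e, Ndufs4 and Atp5d rose by 1.22, 1.08, 0.88, 0.85 and 0.80. Ndufa4 (-1.79) was among the falls, with Ndufa10 (-1.60), Ndufb8 (-1.45) and Atp5b, the catalytic beta subunit of ATP synthase (-1.22). Atp5e and Atp5b, subunits of the same F1 head, thus moved in opposite directions. Of the mitochondrial genes, 5 of 13 were higher, from mt-Nd4l (0.41) to mt-Nd2 (0.82), while mt-Co1 was at 0.13 (adjusted p = 0.615). By total UMIs mt-Nd2 and mt-Atp8 were higher and mt-Nd6 was lower.

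Bipolar cells raised all 13 mitochondrial genes over rods, by 0.53 (mt-Cytb) to 1.25 (mt-Nd6), and of 79 nuclear members 3 were higher and 32 lower, beside 32.2% and 22.6% of all genes (6 and 23 by total UMIs, beside 37.1% and 18.3%). The median log2 fold change of the nuclear members was -0.33, against 0.11 over all genes. Ndufv3 (565 CPM ± 118 against 372 CPM; 0.47, adjusted p = 0.0197), Ndufc2 (0.64) and Cox6b2 were the nuclear members to rise. Without cells over 10% mitochondrial UMIs, 25 members were higher and 20 lower, mt-Co1 was at 0.43 in place of 0.98, and mt-Nd4l, mt-Nd5 and mt-Cytb turned to -0.03, -0.02 and -0.10. Knockout retina 1, whose bipolar cells held 14.1% mitochondrial UMIs, had a share in the count: 50 members were lower without it. Amacrine cells at P14, in 3 retinas, raised all 13 mitochondrial genes and 10 of 79 nuclear members, and lowered 13 nuclear members, beside 27.5% and 19.9% of all genes. Their values depended on the retinas, as the count lower over all members was 21 and the count higher 15, in place of 13 and 23, without the wild type, and Cox5a was at 0.82 with it and -0.08 without it. Without cells of high UMI count these counts were 42 lower and 15 higher, and without cells over 10% mitochondrial UMIs, which left 1 retina, 6 were lower.

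Some members moved one way in most comparisons. Uqcrh, the hinge protein of complex III, passed as lower in 10 of 12 comparisons and higher in 0 (7 and 0 by total UMIs). Uqcrq, Ndufa2 and Ndufa12 were lower in 9 and higher in 0, and Atp5g2 was lower in 8 and higher in 0 (7, 9, 5 and 8 lower by total UMIs). Ndufa11 and Ndufs5 were each higher in 6 and lower in 1. The comparisons within a library share their reference cells, so these counts are not independent. In single comparisons 8.43% to 39.2% of all genes passed as lower and 9.62% to 35.9% as higher. How many of all genes passed one way as often is not given here. The genes named were picked for their high counts, so the counts do not set these members apart from other genes.

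In the main edgeR fits, on all cells, explants and retinas with the low-count filter, 0 members passed between 500 and 0 nM agonist. In these fits 0 members also passed between retinas labelled knockout and heterozygous ones. Between 500 and 0 nM agonist, 0 of 91, 90 and 90 members tested passed in primary progenitors, neurogenic progenitors and photoreceptors by edgeR, beside 0.317%, 0.0988% and 0.0941% of all genes. At an unadjusted p under 0.05 there were 12, 4 and 6 by edgeR and 5, 0 and 3 by DESeq2, which also called 0. Of the 12 in primary progenitors 11 were lower at 500 nM, and the median log2 fold change of nuclear members was -0.18, against 0.01 over all genes. Without 500 nM explant 1, 5 members passed there as lower: Atp5l (-0.40), Uqcrb (-0.39), Cox6c (-0.47), Ndufa6 (-0.45) and Atp5j (-0.38). By total UMIs 6 members had an unadjusted p under 0.05 in these cells, 4 of them lower. Over all cells Xist was at 1301 and 1198 CPM in the 0 nM explants and 2684 and 2639 CPM in the 500 nM explants. The paper held that Xist likely reflected the sexes of the animals, so dose and sex cannot be told apart here. In 500 nM explant 2, 15.7% of the primary progenitors had over 10% mitochondrial UMIs, against 4.43% in 500 nM explant 1. Its nuclear share, 2.61%, was the lowest of the 8 explants, the next being at 2.83%. Without cells over 10% its nuclear share was 2.67%, still the lowest, the next being at 2.84%. No member passed for dose when these cells were left out of all explants. Their part in the calls made without 500 nM explant 1 was not tested.

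Between retinas labelled knockout and heterozygous retinas, 0 of 93, 92 and 92 members passed at P0 in primary progenitors, neurogenic progenitors and photoreceptors, and 0 of 90 and 88 at P14 in rods and bipolar cells, beside 0.00838%, 0.0111%, 0.0592%, 0.0106% and 0.137% of all genes. At an unadjusted p under 0.05 there were 1, 2, 5, 1 and 0 by edgeR and 0, 0, 2, 0 and 0 by DESeq2. The lowest p was that of Ndufa4l2 in P0 photoreceptors, at 166 and 109 CPM in the heterozygous retinas and 82.5 and 67.8 CPM in those labelled knockout (-0.87, SE 0.20, adjusted p = 0.261). The wild type was lower than all of these, at 52.1 CPM. The difference passed by edgeR when cells of high mitochondrial share were left out (-0.94, adjusted p = 0.0381). It also passed without a filter on low counts (-0.88, adjusted p = 4.03e-06). Without knockout retina 1, which left knockout retina 2 alone in its group, it was at -1.02. In P14 bipolar cells mt-Co2, mt-Co3, mt-Atp6 and mt-Cytb were higher, by 0.54 to 0.58, without knockout retina 2, which left knockout retina 1 alone in its group. Bipolar cells of knockout retina 1 stood apart at 14.1% mitochondrial UMIs, with the next of the 5 retinas at 10.5%. Of its bipolar cells 80.5% had over 10% mitochondrial UMIs, against 50% in knockout retina 2. Against the 1 wild-type retina, 0 members passed by edgeR in these 5 cell types, beside 0.0251%, 0.0334%, 0.00987%, 0.0211% and 0.091% of all genes, with 6, 6, 0, 0 and 0 at an unadjusted p under 0.05, and DESeq2 called Ndufa4l2 in P0 primary progenitors (0.78, adjusted p = 0.00268). By edgeR Ndufa4l2 passed there at 0.78 without heterozygous retina 1 and without heterozygous retina 2. In P14 bipolar cells mt-Co3 passed at 0.59 without knockout retina 2, with knockout retina 1 alone set against the 1 wild-type retina. Xist also differed within a genotype. At P0 it was at 1483 and 2.23 CPM in the heterozygous retinas and 4.42 and 1488 CPM in those labelled knockout. At P14 it was at 12.9 and 1903 CPM, and 11.8 and 5.63 CPM.

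Explants and P0 retinas are of like age but were not tested against each other, because library, strain and culture cannot be told apart. In primary progenitors 9 of 13 mitochondrial genes were higher in every explant than in every P0 retina and 2 were lower, beside 11.7% and 9.45% of all genes with 50 UMIs. Among 80 nuclear members, 17 were higher and 20 lower in this sense. In neurogenic progenitors, photoreceptors and amacrine cells 8, 7 and 8 mitochondrial genes were higher and 20, 19 and 22 of 79 nuclear members, beside 5.69%, 10.8% and 6.59% of all genes. Lower in every explant were 2, 2 and 3 mitochondrial genes and 14, 17 and 16 nuclear members, beside 5.72%, 9.51% and 6.73%. RGCs had 10 mitochondrial genes and 0 nuclear members higher (5.27% of all genes), and 28 of 76 nuclear members lower (8.73%). The RGCs compared did not overlap in size, with 1001 to 2495 genes per cell in explants and 3335 to 7128 at P0. No deposited explant cell held more than 2499 genes, whereas P0 cells of the other types reached 5796 to 7324. Over 10% mitochondrial UMIs were found in 76.5% of the explant RGCs and in 0 of those at P0. In primary progenitors mt-Co3 was at 11387 CPM in explants and 5597 CPM at P0 and mt-Co1 at 5519 and 3900 CPM. In the same cells mt-Nd3 was at 618 and 1158 CPM and mt-Atp8 at 97.7 and 180 CPM. Cox4i1 was at 1203 to 1534 CPM in explants and 971 to 1003 CPM at P0. Ndufa1 and Atp5e were lower in explants (155 against 298 CPM, and 743 against 1298 CPM), and Cox4i2 was at 102 CPM against 173 CPM.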

How the data were processed

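Single cells of 3 MULTI-seq libraries of mouse retina, made with the 10x Chromium 3' kit, were analysed. The authors assigned cells to samples by lipid barcodes and deposited raw UMI counts, whole numbers per gene and cell, with a table of sample, dose or genotype and cell type. Cell Ranger 3.1.0, Seurat 3 and mm10 are named in the submitters' processing notes.

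UMIs were summed per explant or retina and cell type, and sums of at least 10 cells were kept. The quasi-likelihood test of edgeR 4.0.16 (R 4.3.3) was run on the sums, after a filter on low counts and TMM scaling (Benjamini-Hochberg adjustment over all genes tested, threshold 0.05). Cell types were compared with the explant or retina as a block. The block comes from the samples themselves, since the cell types of 1 explant or retina were dissociated together. Dose (500 against 0 nM) and genotype (labelled knockout against heterozygous) were compared within a cell type. The summed shares of UMIs were not tested. Alternatives were DESeq2 1.42.0, its size factors in edgeR, no low-count filter, mitochondrial genes or cells of high mitochondrial share (above the 90th percentile) or high UMI count (above the 95th) left out, no block, and each sample left out. A limit of 10% mitochondrial UMIs per cell and total UMIs in place of TMM were added after the data were seen.

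The genes and lists were chosen with earlier results of these data known. Those named are the 13 mitochondrial genes, isoform genes and complex II genes, the 6 largest rises and falls of nuclear members past the threshold with at least 50 UMIs per comparison, and members called for dose or genotype. Others named were chosen after their values were seen. A few genes that the rule names are not reported here. On simulated data with 200 genes changed, edgeR recovered 50% of 2-fold and 91% of 4-fold changes for cones against rods at P14 (9902 genes, 5 false calls), and 61% and 90% for 500 against 0 nM in explant photoreceptors (7440 genes, 8 false calls). The 3' counts were not divided by length, so levels of different genes are not compared. Of the 96 genes, 32 share at least 95% identity over 100 or more of their last 300 transcript bases with another gene, among them Ndufb8, Ndufb11, Cox5a, Cox6a1, Cox6c, Cox7c, Ndufs5, Atp5g1, Atp5g2, mt-Co1, mt-Co2 and mt-Co3, and their counts are uncertain to that extent. Coordinates of genes are those of GENCODE on GRCm38. The authors' doublet treatment is not given in the sources used here, and no doublet caller was run. The natural-log SCT values were not used. Other computations used Python 3.11.15, numpy 2.4.6, pandas 2.3.3, scipy 1.17.1 and matplotlib 3.10.9.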

Additional observations from a re-analysis of the deposited data

Results flagged for a closer look

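Among 28 groups of 4 to 10 explants or retinas whose summed shares were examined, 2 samples stood apart from the rest of their group by Dixon's test at 95%, which chance gives in about 1 of 20 groups. Primary progenitors of 500 nM explant 2 held 2.61% nuclear UMIs of these genes, with the next of the 8 explants at 2.83%. Bipolar cells of knockout retina 1 at P14 held 14.1% mitochondrial UMIs, with the next of the 5 retinas at 10.5%.

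Among neurogenic progenitors, photoreceptors and amacrine cells, 3 genes differed from primary progenitors in opposite directions in all 8 explants and all 5 P0 retinas. The scale was log2(CPM + 1), and these differences between libraries were not tested. RGCs were not part of this count. Atp5k was higher in explant photoreceptors (0.26) and lower in P0 photoreceptors (-0.34). Ndufb7 was higher in explant amacrine cells (0.15) and lower in P0 amacrine cells (-0.20). mt-Cytb was lower in explant amacrine cells (-0.11) and higher in P0 amacrine cells (0.07).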

How the results depend on the processing

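Of 563 alternative values of counts and shares, 487 stayed within 1.5 times the count or 1 SD of the share and 76 did not, and of 4620 alternative values of single genes 4225 kept direction and call, 356 lost the call and 39 changed sign. The causes were not tested except where an alternative drops samples or cells by its construction.

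With total UMIs in place of TMM (members higher and lower, all members), the counts were 13 and 9 in explant neurogenic progenitors, 10 and 32 in P0 neurogenic progenitors in place of 4 and 53, 34 and 31 in P0 photoreceptors in place of 11 and 54, 31 and 30 in P0 amacrine cells in place of 10 and 59, 53 and 13 in P0 RGCs in place of 31 and 25, and 13 and 37 in Müller glia in place of 23 and 23. DESeq2 and its size factors in edgeR each gave 7 and 54 in explant amacrine cells, where the size factors moved the median of all genes by -0.15, and DESeq2 gave 7 higher in P0 neurogenic progenitors and 23 higher in cones. Without a low-count filter 2 were higher in P0 neurogenic progenitors, 6 in P0 photoreceptors, and 1 passed between genotypes in P0 photoreceptors, as 1 did without cells of high mitochondrial share. Without cells of high UMI count the counts were 10 and 9 in explant neurogenic progenitors, 26 higher in cones, and 15 and 42 in P14 amacrine cells. Without cells over 10% mitochondrial UMIs they were 1 and 10 in explant RGCs, 30 and 2 in cones, 25 and 20 in bipolar cells, and 6 lower in P14 amacrine cells, the explant RGCs and P14 amacrine cells then resting on 1 sum each.

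Leaving out 1 explant or retina at a time gave these ranges, lowest to highest, of members higher and lower: explant neurogenic progenitors 4 to 8 and 9 to 14, photoreceptors 21 to 24 and 29 to 35, amacrine cells 13 to 20 and 20 to 27, RGCs 15 and 61 to 69. At P0 they were 2 to 4 and 53 to 57 in neurogenic progenitors, 8 to 11 and 52 to 54 in photoreceptors, 10 to 11 and 48 to 54 in amacrine cells, and 31 to 43 and 13 to 20 in RGCs. At P14 they were 4 to 15 and 1 to 3 in cones, 13 to 15 and 25 to 50 in bipolar cells, 16 to 21 and 21 to 44 in Müller glia, and 15 to 29 and 10 to 21 in amacrine cells. For dose in explant primary progenitors the range was 0 to 5, for genotype in P0 photoreceptors 0 to 1 and in P14 bipolar cells 0 to 4, and it was 0 in the other comparisons of 500 with 0 nM and of labelled knockout with heterozygous retinas. Against the wild type, Ndufa4l2 passed in P0 primary progenitors without either heterozygous retina, and mt-Co3 in P14 bipolar cells without knockout retina 2.

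Nuclear shares rose when taken over nuclear UMIs, to 3.06%, 3.14%, 3.29%, 3.08% and 2.46% in explant primary progenitors, neurogenic progenitors, photoreceptors, amacrine cells and RGCs, to 3.22%, 3.05%, 3.17% and 3.08% in the first 4 of these at P0, and to 3.59%, 4.41% and 2.83% in rods, cones and Müller glia. As a median over cells, nuclear shares were 2.99% in explant photoreceptors, 1.61% in explant RGCs, 1.53% in bipolar cells and 0.795% in P14 amacrine cells, and mitochondrial shares 5.72% in explant photoreceptors and 8.25% in cones. Without cells over 10%, mitochondrial shares were 5.78% in explant photoreceptors, 6.85% in explant RGCs, 7.59% in cones, 6.43% in bipolar cells, 5.86% in Müller glia and 5.51% in P14 amacrine cells, and nuclear shares 2.56% in explant RGCs and 3.52% in bipolar cells.

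Genes that changed sign did so near 0 in most cases. Ndufa4 in explant amacrine cells was at -0.0090 with DESeq2 and -0.0088 with its size factors, mt-Nd3 in P0 RGCs at 0.011 without the wild type, and Cox5a in P14 amacrine cells at -0.27 without cells of high UMI count and between -0.083 (without the wild type) and 1.06 (without knockout retina 1) when 1 retina was left out. Without cells over 10%, explant RGCs had Sdhb at 0.12, Cox7a2 at 0.12, mt-Nd1 at -0.038, mt-Nd2 at -0.48, mt-Co3 at -0.00105, mt-Nd5 at -0.33, mt-Nd6 at -0.67 and mt-Cytb at -0.050. In the same setting bipolar cells had mt-Nd4l at -0.032, mt-Nd5 at -0.023 and mt-Cytb at -0.10, and P14 amacrine cells mt-Atp8 at -0.023, mt-Co3 at -0.11, mt-Nd4 at -0.037, mt-Nd5 at -0.38 and mt-Nd6 at -1.11. By total UMIs, P0 neurogenic progenitors had mt-Nd1 at 0.015 and mt-Co2 at 0.030, P0 RGCs mt-Nd3 at 0.035, and P0 photoreceptors Cox5b at 0.024, Cox4i1 at 0.060, Cox6c at 0.045, mt-Atp8 at 0.020, mt-Nd3 at 0.010, mt-Nd4l at 0.017 and mt-Nd6 at 0.0030. P0 amacrine cells had Cox7b at 0.043, Cox6a1 at 0.068, Cox6b1 at 0.084, Cox7a2l at 0.0065, mt-Atp6 at 0.078, mt-Nd3 at 0.019, mt-Nd6 at 0.017 and mt-Cytb at 0.068.

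Without the replicate block of explant or retina, no count between cell types moved beyond 1.5 times, with 22 members higher and 34 lower in explant photoreceptors and 10 and 1 in cones. Doses and genotypes could not be paired, because the cell tables name samples by barcode and give them no shared replicate numbers.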

Other observations

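Genes that work beside the respiratory chain were counted in 5 lists chosen with earlier results known. Of the carriers and energy transfer genes, 8 of 11 tested were higher and 1 lower in P0 RGCs than in primary progenitors, with a median log2 fold change of 0.73 against -0.16 over all genes and beside 32.1% higher and 39.2% lower of all genes. Ckmt1, the mitochondrial creatine kinase, was higher by 6.69 there, by 4.81 in explant photoreceptors and by 5.85 in P0 photoreceptors, and Slc25a4, an ADP/ATP carrier, by 1.82 in P0 RGCs. The cytosolic Ckb was lower in RGCs of both early libraries (-2.43 at P0, -2.46 in explants).

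Of the genes of the oxygen response list, 8 of 11 tested were lower and 2 higher in P0 RGCs, and 6 of 10 were higher and 2 lower in Müller glia than in rods. Of all genes 32.1% were higher and 39.2% lower in P0 RGCs, and 36.8% higher and 28.2% lower in Müller glia. Slc2a1, the main glucose transporter, was lower than in primary progenitors in photoreceptors (-1.57 in explants, -1.19 at P0), amacrine cells (-3.44, -3.15) and RGCs (-4.82, -5.89), and higher in Müller glia than in rods (2.42). Vegfa and Bnip3 were higher in Müller glia, by 4.75 and 2.5. Ldha, lactate dehydrogenase A, was higher in photoreceptors (2.49 in explants, 1.77 at P0) and lower than in rods in Müller glia (-1.37) and bipolar cells (-2.06).

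Of the regulators of mitochondrial genes, 8 of 13 tested were lower and 3 higher in P0 RGCs, beside 39.2% lower and 32.1% higher of all genes. Esrrg, an estrogen-related receptor, was higher in P0 photoreceptors (4.19), amacrine cells (4.50) and RGCs (4.19), and Ppargc1a, a coactivator of mitochondrial genes, in P0 photoreceptors (1.65) and RGCs (2.62). Esrrb was lower than in rods in cones (-1.82), bipolar cells (-3.02) and Müller glia (-3.57). Of the Krebs cycle genes outside complex II, Suclg2, the GTP-forming succinyl-CoA ligase subunit, was lower in P0 RGCs (-5.15) and in photoreceptors (-3.73 in explants, -1.97 at P0) and higher in Müller glia than in rods (5.59). Of 43 assembly factors tested in P0 RGCs, 11 were higher and 10 lower, and of 40 tested in Müller glia 7 were higher and 10 lower, beside the shares of all genes given above. Ndufaf5 was among the latter at -3.43.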
